A study of Homo sapiens with 12 samples.

Results

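Of 35 genes that androgen is known to induce in prostate cells, 18 fell and 4 rose when choline kinase alpha was knocked down in C4-2 cells. These are 51.4% and 11.4% of the 35, against 30.1% and 32.1% of all genes tested. The 35 are a fixed list of androgen-induced genes given by symbol, with the kallikrein family left out. The list and its role groups were chosen with earlier results of these data known, so their shares of falls are descriptions. All 35 were found by Ensembl identifier among the 54127 genes of the count files, and all 35 passed the expression filter. C4-2 is an established human prostate cancer line derived from LNCaP. Cells received 50 nM of an siRNA pool against CHKA (siCHKA) or of a nontargeting pool (siNT), delivered by lipid reverse transfection. Polyadenylated RNA from 6 samples a group was read from 1 end over 40 bases. No androgen, antagonist or second siRNA was part of the comparison, and 1 cell line and 1 pool stand behind every value.

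Androgens are steroid hormones that raise the transcription of their target genes through androgen response elements, palindromes of a short hexamer in DNA, at which coactivators and the Mediator complex are recruited. In luminal prostate cells these targets include secreted and membrane proteins, lipid and polyamine enzymes, transcription factors and regulators that feed back on the pathway. Several of them, FKBP5, SGK1, TSC22D3 and ZBTB16 among them, are also induced by the glucocorticoid receptor in many tissues.

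Reads counted on genes ranged from 12158361 to 20670479 in the siCHKA samples and from 10685184 to 24246055 in the siNT samples, so 3 counts correspond to 0.124 to 0.281 CPM before TMM normalization. CPM of single genes are counts relative to the library size after TMM normalization. The targeted transcript was measured first. CHKA was measured at 1.91 to 4.67 CPM after siCHKA (median 2.31) and at 36.7 to 43.3 CPM after siNT (median 41.6), a log2 fold change of -3.88 ± 0.14 (standard error) with an adjusted p of 5.89e-13 in edgeR's quasi-likelihood test. The luminal genes KLK3, HOXB13, FOLH1, STEAP2, KRT8 and KRT18 summed to 3887 to 5531 CPM after siCHKA and to 4410.1 to 5700 CPM after siNT, while KRT5, TP63, COL1A2 and CD3E stayed below 3 counts in every sample. The small summed levels of basal, stromal, neuroendocrine and leukocyte markers were higher after siCHKA, at 1.65 to 2.23 against 0.903 to 1.40 CPM for 3 basal genes, 37.7 to 46.8 against 24.3 to 28.4 CPM for 5 stromal genes, 12.995 to 25.1 against 6.14 to 12.7 CPM for 4 neuroendocrine genes and 4.08 to 6.09 against 2.51 to 3.79 CPM for 3 leukocyte genes, and their part in the results was not tested. All these summed levels were taken before TMM normalization, which lowers siCHKA values relative to siNT values. Whether the closest ranges, those of neuroendocrine and leukocyte genes, stay apart after it was not computed. In these bulk samples, fewer cells of a type and less RNA per cell cannot be told apart.

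Within each group the samples were not evenly spread. The siCHKA samples numbered 1, 3 and 5 lay apart from those numbered 2, 4 and 6: at 22 of the 35 genes (62.9%) these sets did not overlap, against 47.5% of all genes tested, and at 10 of them (28.6%) the set 2, 4 and 6 was the higher, against 22.9%. Among the siNT samples, numbers 1 to 3 and 4 to 6 did not overlap at 13 of the 35 genes (37.1%), against 29.4% of all genes tested, and 1 to 3 were the lower at 12 of these (34.3% of the 35), against 16.2%. The labels give no batch. Values by set, or fold changes with a set left out, are therefore given where a call changed without a set. The study's text speaks of biological triplicate experiments for its differential genes and of 6 biological replicates for single genes. Which samples share a culture or transfection is not given in the sources used here. Differences between sets within a group were not tested.

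Across the 35 genes, 18 were lower after siCHKA at an adjusted p below 0.05 (51.4%), against 30.1% of the 14501 genes tested, and 4 were higher (11.4%), against 32.1% of all genes tested. The median log2 fold change of the 35 was -0.23, and that of all genes tested was 0.035. The fold change lay below 0 at 26 of the 35. At 15 of them every siCHKA sample lay below every siNT sample (42.9%), against 21.5% of all genes tested, and at 1, MAF, every siCHKA sample lay above every siNT sample (2.86%), against 19.1%. With a minimum change of 0.5 log2 added, 11 were lower, against 14% of all genes tested, and 2 were higher, against 16.2%. The falls ran from a log2 fold change of -1.71 at TPD52 to -0.15 at PLPP1, and the rises from 0.19 at SPDEF to 0.93 at MAF. The TMM factors differed between the groups, at 1.02 to 1.07 for the siCHKA samples and 0.922 to 0.965 for the siNT samples. This scaling lowers siCHKA values relative to siNT values, so the smallest changes depend on it. No refit used library size alone.

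**Figure D1:**
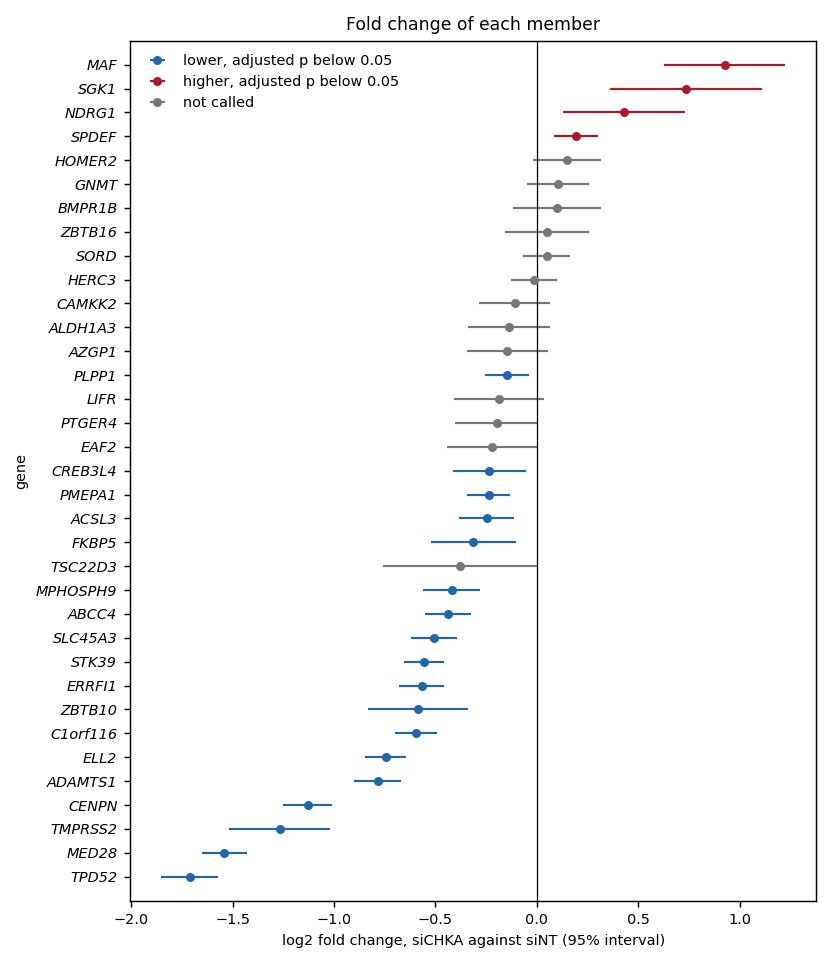
Log2 fold change (x axis) of each of the 35 genes (y axis), siCHKA against siNT with 6 samples each, with the 95% interval as a bar. Blue points mark the 18 genes called lower, red points the 4 called higher and grey points the 13 not called, whose intervals cross 0 or lie close to it.

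**Figure D2:**
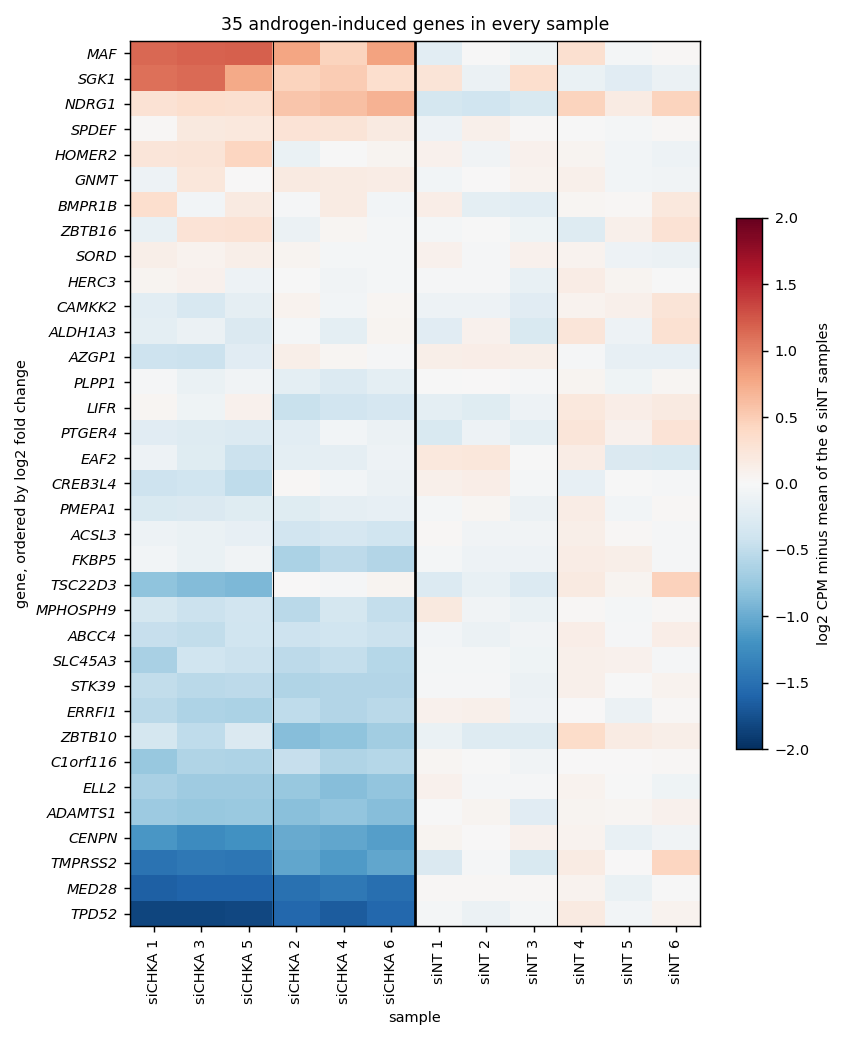
Log2 CPM of each gene (rows, ordered by fold change) in each sample (columns), minus the mean of the 6 siNT samples, with blue for lower and red for higher values. Thin lines part siCHKA 1, 3, 5 from 2, 4, 6 and siNT 1 to 3 from 4 to 6, and TPD52, MED28, TMPRSS2 and CENPN are blue in every siCHKA sample.

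Among 10 genes listed under surface, transport and secreted proteins, 6 fell (60%, against 30.1% of all genes tested), none rose (against 32.1%) and 4 were not called, with a median log2 fold change of -0.34. C1orf116 was listed here, and where its protein lies in the cell was not checked. TMPRSS2, a type II transmembrane serine protease whose androgen-driven promoter is fused to ERG in many prostate cancers, fell most. TMPRSS2 was measured at 80.9 to 109 CPM after siCHKA (median 92.9) and at 181 to 302 CPM after siNT (median 224). The groups did not overlap, and the fall was to 41.5% of the siNT level. Its log2 fold change was -1.27 ± 0.12 (adjusted p = 7.52e-08, edgeR's quasi-likelihood test; exact permutation p = 0.00216, the smallest that 6 against 6 samples allow). The gene lies at chr21:41464300-41531116, minus strand in GRCh38. Both groups were split: siCHKA 1, 3 and 5 lay at 80.9 to 83.5 CPM and siCHKA 2, 4 and 6 at 102 to 109, while siNT 1 to 3 lay at 181 to 222 and siNT 4 to 6 at 226 to 302. With any of these sets left out, the log2 fold change stayed between -1.47 and -1.06.

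SLC45A3, or prostein, a membrane transporter nearly particular to the prostate, fell by less. SLC45A3 was measured at 52.5 to 62.7 CPM after siCHKA (median 58.5) and at 77.4 to 88.96 CPM after siNT (median 80.8), without overlap between the groups. Its log2 fold change was -0.51 ± 0.054 (adjusted p = 3.4e-07, edgeR's quasi-likelihood test), and the gene lies at chr1:205657851-205680509, minus strand. ADAMTS1 was measured at 94.8 to 103 CPM after siCHKA (median 100.1) and at 145 to 182 CPM after siNT (median 176). ADAMTS1 encodes a secreted metalloprotease of the extracellular matrix, and its groups were separate also, at a log2 fold change of -0.78 ± 0.055 (adjusted p = 1.81e-09, same test; chr21:26835755-26845409, minus strand). C1orf116 was measured at 84.3 to 104 CPM after siCHKA (median 93.8) and at 135 to 146 CPM after siNT (median 143). C1orf116, also called SARG for specifically androgen-regulated gene, changed by -0.60 ± 0.049 on the log2 scale (adjusted p = 1.63e-08, same test; chr1:207018522-207032756, minus strand), and the groups did not overlap.

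The remaining falls of this group were smaller. ABCC4, an efflux pump for cyclic nucleotides and prostanoids, changed by -0.44 ± 0.054 on the log2 scale, and PMEPA1, a membrane protein that dampens TGF-beta signalling, by -0.24 ± 0.050. Both had all siCHKA samples below all siNT samples, PMEPA1 narrowly, with 125 CPM as its highest siCHKA value and 130.04 CPM as its lowest siNT value. The other 4 missed the threshold. PTGER4, a prostaglandin E2 receptor, had a log2 fold change of -0.20 with a 95% interval of -0.40 to 0.0059, LIFR, the receptor of leukaemia inhibitory factor, one of -0.19 (-0.41 to 0.034), AZGP1, a secreted zinc-binding glycoprotein, one of -0.15 (-0.35 to 0.053) and BMPR1B, a BMP receptor, one of 0.10 (-0.12 to 0.31). PTGER4 was measured at 9.20 to 10.7 CPM after siCHKA (median 9.54) and at 8.96 to 13.4 CPM after siNT (median 11.1). The siCHKA samples lay inside the siNT range at PTGER4 and, at 5.995 to 7.85 against 5.40 to 7.20 CPM, nearly so at BMPR1B. At PTGER4 siNT 1 to 3 lay at 8.96 to 10.4 CPM and siNT 4 to 6 at 11.8 to 13.4 CPM. Without siNT 1 to 3 its log2 fold change was -0.40 (adjusted p = 0.00209, edgeR's quasi-likelihood test). Without siNT 4 to 6 it was -0.010 (adjusted p = 0.932, same test).

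LIFR and AZGP1 came out differently in the 2 sets of siCHKA samples. The sets were chosen with results of these data known, so p-values by set are descriptions. LIFR stood at 47.99 to 54.5 CPM in siCHKA 1, 3 and 5 and at 37.4 to 40.6 in siCHKA 2, 4 and 6, against 43.4 to 59.3 CPM in the siNT samples. AZGP1 was the other way round, at 138 to 159.7 CPM in siCHKA 1, 3 and 5 and 185 to 203 in siCHKA 2, 4 and 6, against 166 to 206 CPM after siNT. Against all 6 siNT samples, LIFR fell in siCHKA 2, 4 and 6 alone (log2 fold change -0.40, adjusted p = 0.00199, edgeR's quasi-likelihood test) and AZGP1 in siCHKA 1, 3 and 5 alone (-0.36, adjusted p = 0.000954). In the opposite set the values were 0.0062 (adjusted p = 0.963) for LIFR and 0.034 (adjusted p = 0.713) for AZGP1, same test. The siNT sets were apart at LIFR too, with 1 to 3 at 43.4 to 47.6 CPM and 4 to 6 at 56.2 to 59.3 CPM. LIFR was at -0.37 without siNT 1 to 3 (adjusted p = 0.0132, same test) and at -0.011 without siNT 4 to 6 (adjusted p = 0.942, same test).

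Among 9 regulators of signalling and trafficking, 4 fell (44.4%, against 30.1% of all genes tested), 2 rose (22.2%, against 32.1%) and 3 were not called, with a median log2 fold change of -0.11. TPD52, a coiled-coil protein of vesicle traffic that is often gained in prostate tumours, had the largest fall of the 35. TPD52 was measured at 89.2 to 108 CPM after siCHKA (median 95.4) and at 295 to 359.8 CPM after siNT (median 309.98), and no siCHKA value came near the siNT range. This is 30.5% of the siNT level, at a log2 fold change of -1.71 ± 0.066 (adjusted p = 9.99e-13, edgeR's quasi-likelihood test). ERRFI1 was measured at 28.00 to 30.4 CPM after siCHKA (median 29.3) and at 40.02 to 46.4 CPM after siNT (median 43.6). ERRFI1 (MIG6) is a feedback inhibitor of the EGF receptor, and its log2 fold change was -0.57 ± 0.053 (adjusted p = 7.42e-08, same test; chr1:8004404-8026309, minus strand). STK39 was measured at 175 to 189 CPM after siCHKA (median 179.7) and at 246 to 284 CPM after siNT (median 263). STK39 (SPAK), a kinase that controls ion cotransporters, changed by -0.56 ± 0.047 (adjusted p = 2.02e-08, same test; chr2:167954020-168247595, minus strand). Both genes had siCHKA samples below every siNT sample.

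FKBP5, an immunophilin that joins HSP90 in complexes with steroid receptors and a standard readout of androgen action, was lower over all samples, and the call rested on 1 of the siCHKA sets. FKBP5 was measured at 139 to 206 CPM after siCHKA (median 173) and at 200.4 to 237 CPM after siNT (median 209). The groups overlapped: siCHKA 1, 3 and 5 lay at 196 to 206 CPM, of which siCHKA 3 was below every siNT sample and the others among the lower siNT values, and siCHKA 2, 4 and 6 at 139 to 149.8 CPM, below every siNT sample. Over all samples the log2 fold change was -0.31 ± 0.10 (adjusted p = 0.0116, edgeR's quasi-likelihood test; exact permutation p = 0.0216). It was -0.58 (adjusted p = 1.78e-06) without siCHKA 1, 3 and 5, and -0.085 (adjusted p = 0.288) without siCHKA 2, 4 and 6, same test. Without siNT 4 to 6, whose 210.4 to 237 CPM lay above the 200.4 to 208 CPM of siNT 1 to 3, it was -0.24 (adjusted p = 0.124, same test). The gene lies at chr6:35573585-35728583, minus strand.

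CAMKK2, a calcium and calmodulin-dependent kinase upstream of AMPK, did not pass the threshold. CAMKK2 was measured at 109.9 to 144 CPM after siCHKA (median 127) and at 118 to 165 CPM after siNT (median 136). The groups overlapped widely, and the log2 fold change was -0.11 with a 95% interval of -0.28 to 0.066 (adjusted p = 0.265, edgeR's quasi-likelihood test; chr12:121237675-121298308, minus strand). The siCHKA samples 1, 3 and 5 (109.9 to 121 CPM) were lower than 2, 4 and 6 (132 to 144 CPM), and the siNT samples 1 to 3 (118 to 127 CPM) lower than 4 to 6 (144 to 165 CPM). The change without siCHKA 2, 4 and 6 was -0.24 (adjusted p = 0.0269, same test), without siCHKA 1, 3 and 5 it was 0.0067, without siNT 1 to 3 it was -0.26 (adjusted p = 0.0201, same test), and without siNT 4 to 6 it was 0.033.

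HERC3, a HECT-type ubiquitin ligase, stayed at 70.7 to 80.02 CPM against 67.9 to 83.9 CPM (log2 fold change -0.015, 95% interval -0.13 to 0.10). Its level is measured less surely, since 69.5% of its exon bases are shared with a second gene annotated as HERC3 on the same strand. HOMER2, a scaffold of calcium signalling, was at 48.1 to 70.8 CPM against 49.3 to 56.2 CPM (0.15, -0.021 to 0.32). Its siCHKA samples 1, 3 and 5 (62.5 to 70.8 CPM) lay above every siNT sample, and 2, 4 and 6 (48.1 to 54.8 CPM) did not. The 2 rises of this group were NDRG1, a stress- and hypoxia-responsive protein, and SGK1, a serum- and glucocorticoid-induced kinase. NDRG1 was measured at 169 to 225 CPM after siCHKA (median 189.9) and at 105 to 189 CPM after siNT (median 134). At NDRG1 siNT 1 to 3 (105 to 113 CPM) lay far below siNT 4 to 6 (155 to 189 CPM), and the siCHKA samples overlapped with the latter. The log2 fold change was 0.43 ± 0.14 (adjusted p = 0.0147, edgeR's quasi-likelihood test), 0.81 without siNT 4 to 6 and 0.11 (adjusted p = 0.386, same test) without siNT 1 to 3. Without siCHKA 2, 4 and 6 it was 0.27 (adjusted p = 0.161, same test). SGK1 was measured at 1.98 to 3.48 CPM after siCHKA (median 2.46) and at 1.35 to 1.99 CPM after siNT (median 1.46), with 15 to 71 counts per sample. SGK1 rose by a log2 fold change of 0.73 ± 0.18 (adjusted p = 0.00175, same test), 5 of 6 siCHKA samples lying above the highest siNT sample, and with either siCHKA set left out it was between 0.41 and 1.02.

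**Figure D3:**
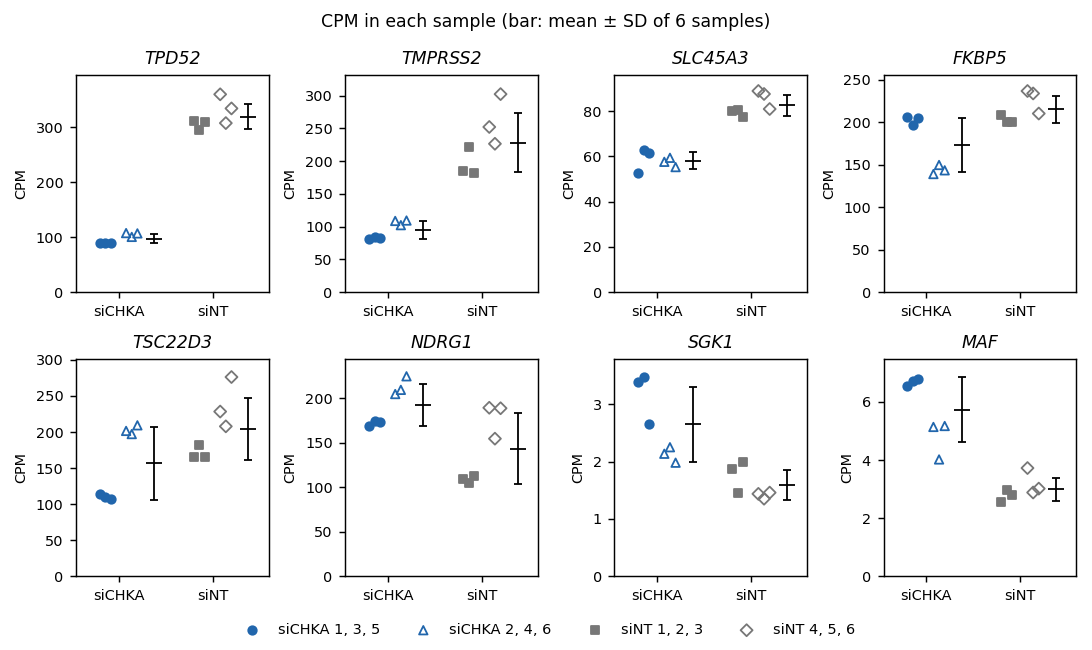
CPM (y axis, from 0) of 8 of the genes in each sample, with siCHKA 1, 3, 5 as filled circles, siCHKA 2, 4, 6 as open triangles, siNT 1 to 3 as filled squares and siNT 4 to 6 as open diamonds, and the mean ± SD of 6 samples as a bar. TPD52, TMPRSS2 and SLC45A3 separate the groups, while FKBP5, TSC22D3 and NDRG1 also separate sets of samples within a group.

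Among 9 transcription and elongation factors the counts were the same, with 4 that fell (44.4%, against 30.1% of all genes tested), 2 that rose (22.2%, against 32.1%) and 3 not called, with a median log2 fold change of -0.23. MED28, a subunit of the Mediator complex, had the second largest fall of the 35. MED28 was measured at 24.2 to 27.7 CPM after siCHKA (median 25.6) and at 68.5 to 78.6 CPM after siNT (median 75.9). No sample overlapped, and 34.4% of the siNT level remained, at a log2 fold change of -1.54 ± 0.052 (adjusted p = 1.9e-13, edgeR's quasi-likelihood test; chr4:17614641-17634105, plus strand). A share of 32.1% of the MED28 exon bases is also covered by exons of the antisense gene FAM184B, and 8 annotated pseudogenes carry its name, so its level is measured less surely. ELL2 was measured at 83.6 to 95.97 CPM after siCHKA (median 90.5) and at 141 to 160.4 CPM after siNT (median 149). ELL2, which speeds RNA polymerase II through gene bodies, changed by -0.75 ± 0.048 on the log2 scale (adjusted p = 6.52e-10, same test; chr5:95885098-95961851, minus strand), and its groups did not overlap.

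ZBTB10, a zinc finger repressor, was measured at 72.5 to 107 CPM after siCHKA (median 86.04) and 109 to 168 CPM after siNT (median 130.1). The highest siCHKA sample and the lowest siNT sample were 107 and 109 CPM, and the log2 fold change was -0.59 ± 0.12 (adjusted p = 0.000346, edgeR's quasi-likelihood test). Sets within each group did not overlap at ZBTB10: siCHKA 1, 3 and 5 lay at 91.8 to 107 CPM and 2, 4 and 6 at 72.5 to 80.3 CPM, and siNT 1 to 3 at 109 to 119 CPM and 4 to 6 at 141 to 168 CPM. It was called with any of these sets left out, from -0.36 without siNT 4 to 6 to -0.81 without siCHKA 1, 3 and 5. CREB3L4, a membrane-bound transcription factor of the endoplasmic reticulum, fell by a log2 fold change of -0.23 ± 0.086, and its call rested on siCHKA 1, 3 and 5 (77.9 to 83.4 CPM against 98.8 to 122 CPM after siNT). Without them it was -0.062 (adjusted p = 0.428, same test), and without siNT 1 to 3 it was -0.18 (adjusted p = 0.182, same test). EAF2, which binds ELL proteins, was not called (-0.22, 95% interval -0.44 to -0.0013, adjusted p = 0.0749, same test), nor was ZBTB16, or PLZF, a zinc finger repressor (0.05, -0.16 to 0.26). EAF2 was at -0.36 without siNT 4 to 6 (adjusted p = 0.00694, same test) and at -0.083 without siNT 1 to 3 (adjusted p = 0.596, same test).

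TSC22D3, or GILZ, a leucine zipper protein induced by steroid receptors, showed the widest split of the siCHKA samples among the 35. TSC22D3 was measured at 108 to 209 CPM after siCHKA (median 156) and at 166 to 276 CPM after siNT (median 195). The siCHKA samples 1, 3 and 5 lay at 108 to 115 CPM, below every siNT sample, and 2, 4 and 6 at 197 to 209 CPM, within the siNT range. Its log2 fold change was -0.38 ± 0.18 with a 95% interval of -0.76 to 0.0026 (adjusted p = 0.0784, edgeR's quasi-likelihood test; exact permutation p = 0.0996). It was -0.88 (adjusted p = 2.2e-05) without siCHKA 2, 4 and 6 and -0.016 (adjusted p = 0.924) without siCHKA 1, 3 and 5, same test. The order of the sets was thus opposite to that at FKBP5, where 2, 4 and 6 were the lower set. The siNT sets were apart at TSC22D3 as well, with 1 to 3 at 166 to 182 CPM and 4 to 6 at 208 to 276 CPM. TSC22D3 was at -0.61 without siNT 1 to 3 (adjusted p = 0.0262, same test) and at -0.14 without siNT 4 to 6 (adjusted p = 0.607, same test). The gene lies at chrX:107713221-107777342, minus strand.

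The 2 factors that rose were MAF and SPDEF. MAF was measured at 4.02 to 6.78 CPM after siCHKA (median 5.87) and at 2.56 to 3.73 CPM after siNT (median 2.92), from 30 to 137 counts per sample. MAF, a basic leucine zipper factor, was the only one of the 35 with every siCHKA sample above every siNT sample, at a log2 fold change of 0.93 ± 0.14 (adjusted p = 2.25e-05, edgeR's quasi-likelihood test; chr16:79585843-79600737, minus strand). SPDEF was measured at 122 to 144 CPM after siCHKA (median 138) and at 111 to 128 CPM after siNT (median 119.6). SPDEF, an ETS factor of luminal epithelium, was 1.14-fold higher, a log2 fold change of 0.19 ± 0.051 (adjusted p = 0.00337, same test; chr6:34537802-34556333, minus strand), with 5 of 6 siCHKA samples above the highest siNT sample.

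Among 5 metabolic enzymes, 2 fell (40%, against 30.1% of all genes tested), none rose (against 32.1%) and 3 were not called, with a median log2 fold change of -0.14. ACSL3, which activates long-chain fatty acids on lipid droplets, was at 531 to 657 CPM against 666 to 759 CPM, without overlap (log2 fold change -0.25 ± 0.063). PLPP1, a lipid phosphate phosphatase, was at 390.3 to 467 CPM against 446 to 492 CPM (-0.15 ± 0.052). Both calls rested on siCHKA 2, 4 and 6, since without these samples the values were -0.13 (adjusted p = 0.0872) and -0.072 (adjusted p = 0.308), in edgeR's quasi-likelihood test. The call of PLPP1 was also lost without siNT 1 to 3 (log2 fold change -0.16, adjusted p = 0.0627, same test) or 4 to 6 (-0.15, adjusted p = 0.0526, same test), at changes no smaller than over all samples. Exons of other genes, MTREX on the opposite strand among them, cover 29.6% of the PLPP1 exon bases, and 33.3% of those of ALDH1A3 are shared with 2 genes that do not code for protein. ALDH1A3, a retinaldehyde dehydrogenase, was at -0.14 (95% interval -0.34 to 0.064), SORD, the sorbitol dehydrogenase, at 0.048 (-0.067 to 0.16) and GNMT, which methylates glycine, at 0.10 (-0.046 to 0.26). ALDH1A3 was at -0.29 without siNT 1 to 3 (adjusted p = 0.0196, same test) and at -0.0031 without siNT 4 to 6 (adjusted p = 0.980, same test). SORD was the most abundant of the 35 in CPM, at 1115 to 1246 after siCHKA and 1058 to 1217 after siNT, and reads shared with its near copy SORD2P would be left out by the counting. Levels relative to exon length put PLPP1 highest, at 244 RPKM after siNT, with SORD at 92.2 RPKM, TMPRSS2 at 34.6 RPKM, FKBP5 at 20.2 RPKM and SGK1 lowest, at 0.160 RPKM. The length counts every annotated exon of a gene, 1935 bases for PLPP1 and 12428 for SORD. The isoforms in use were not determined, so this order depends on the annotation.

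Both genes of mitosis and the centrosome fell (100%, against 30.1% of all genes tested). CENPN was measured at 85.6 to 102 CPM after siCHKA (median 93.8) and at 185 to 217 CPM after siNT (median 209). CENPN, a kinetochore protein that reads CENP-A nucleosomes, was reduced to 45.7% of the siNT level without overlap, at a log2 fold change of -1.13 ± 0.057 (adjusted p = 2.64e-11, edgeR's quasi-likelihood test; chr16:81006552-81033114, plus strand). Exons of other genes, mostly antisense such as CMC2, cover 23.1% of its exon bases. MPHOSPH9, a centriole protein, was at 13.3 to 15.2 CPM against 17.5 to 22.02 CPM, also without overlap (log2 fold change -0.42 ± 0.066). With 1 count file per sample MPHOSPH9 was at -0.24 and was not called (adjusted p = 0.055, same test). Genes of proliferation moved with them: MKI67 (-1.32), TOP2A (-1.51), CCNB1 (-1.42), CDK1 (-1.01) and RRM2 (-2.62) fell on the log2 scale. All 5 of 5 listed were lower at an adjusted p below 0.05 (100%, against 30.1% of all genes tested). Their part in the falls of CENPN and MPHOSPH9 was not tested.

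**Figure D4:**
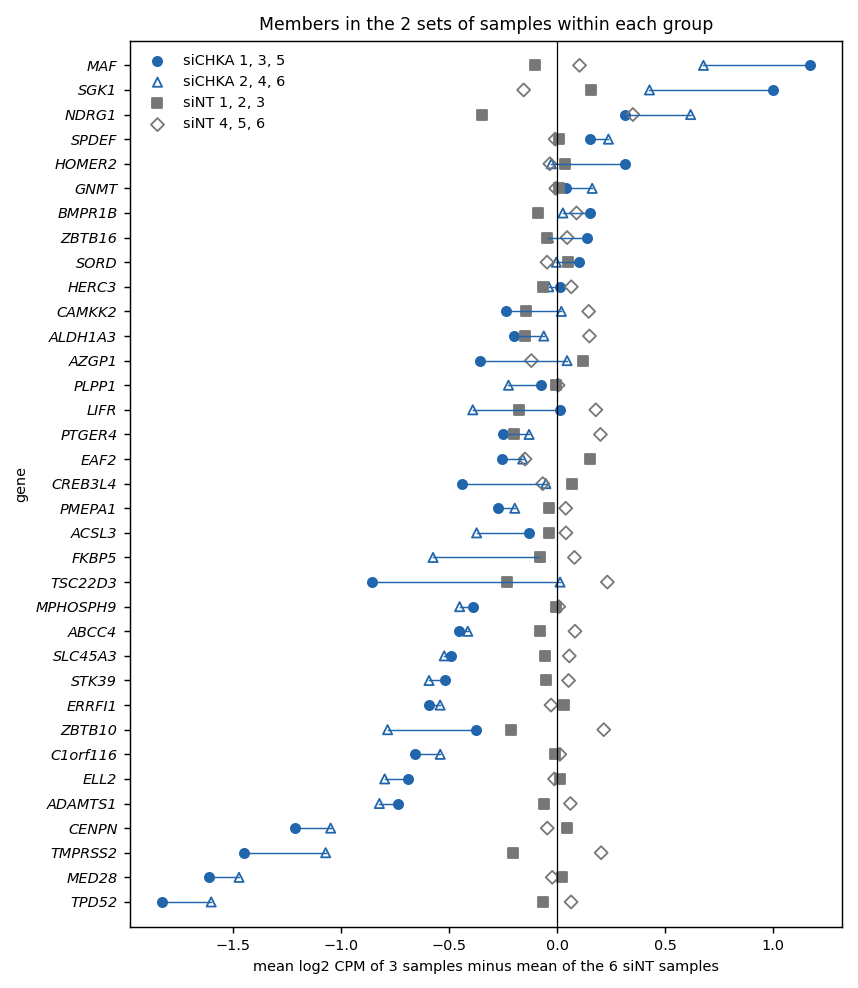
Mean log2 CPM of 3 samples minus the mean of the 6 siNT samples (x axis) for each gene (y axis), with a blue line from siCHKA 1, 3, 5 (filled circles) to siCHKA 2, 4, 6 (open triangles) and grey marks for siNT 1 to 3 (squares) and siNT 4 to 6 (diamonds). The line is longest at TSC22D3, and at TPD52, MED28, TMPRSS2 and CENPN both ends lie far left of all siNT marks.

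Sequence around the genes was read from GRCh38 for the palindromic core of the androgen response element, GNACA and TGTNC set 3 bases apart (N for any base), which reads the same on both strands. Within 25 kb of the gene body, 28 of the 35 genes (80%) held at least 1 copy, against 67.5% of the 13943 tested genes that could be placed. The stretch read was longer for the 35 genes, at a median of 113 kb against 80.5 kb, and the part of length was not tested. The density was 16.01 per Mb for the 35 genes, 15.7 for the 18 that fell, 26.8 for the 4 that rose and 13.9 for the 13 not called, against 13.1 for all genes tested. FKBP5 and ZBTB16 held 8 copies each and SGK1 7, while SLC45A3, ADAMTS1, HERC3, EAF2, PTGER4, AZGP1 and ZBTB10 held none. The 7 of SGK1 are among only 12 copies at the 4 genes that rose. These letters also fit glucocorticoid receptor binding, and no binding was measured here.

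The copies shown are the only match to the full palindrome, AGAACA and TGTTCT set 3 bases apart, among these genes, an intronic site of FKBP5 126 kb from its start, and, from the genes described above, copies within genes or near their start. Each is written along the strand of its gene with the core in capitals.
FKBP5, intron, chr6:35602075-35602104: ccacattcaGAACAGGGTGTTCtgtgctct
FKBP5, intron, chr6:35728106-35728135: gcccgctcgGGACATTGTGTTCcagccccg
TMPRSS2, intron, chr21:41491504-41491533: gagttatgaGAACATCGTGTGCctgggcat
ELL2, intron, chr5:95960955-95960984: tggtgagggGCACACGGTGTACtcatagag
CENPN, intron, chr16:81011164-81011193: ggacttttGCACATGCTGTTCcttctgcct
CREB3L4, upstream, chr1:153967076-153967105: caagtgtgGGACATAATGTTCccggtaact
GNMT, exon, chr6:42960765-42960794: aggatggtGGACAGCGTGTACcggacccgc
SGK1, intron, chr6:134298270-134298299: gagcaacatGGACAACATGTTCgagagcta
TSC22D3, intron, chrX:107767837-107767866: aatggcccaGAACATACTGTGCtgtcccaa

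The FKBP5 copy close to the start lies 463 bases into the gene, the ELL2 copy 882 bases in, the CREB3L4 copy 444 bases upstream and the GNMT copy 25 bases in, within its first exon. GNMT and ELL2 thus share a copy near the start and differed in outcome, GNMT at a log2 fold change of 0.10 and ELL2 at -0.75. RefSeq promoter windows (GRCh38.p14, 250 bases before to 50 after the start) matched 25 of the 35 genes. The window of CREB3L4, chr1:153968000-153968299, lies downstream of the gene start used for the distances above. The CREB3L4 copy is therefore further from the RefSeq start, and it also lies within the gene SLC39A1. The hexamer AGAACA, on either strand, was in 3 of the 25 (12%; FKBP5, PMEPA1 and STK39, all of which fell), against 14.8% of 35116 promoters, and the palindrome was in 1 (GNMT), against 137 of 35116.

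The 7-base words GCCAGAT and TGCCCTT were taken because earlier results of these counts had related them to falls. More falls among genes with a word are therefore built into the choice and are no independent result. The words were looked for on the sense strand in 3′ UTRs, taking for each gene its longest coding transcript. At least 1 of the words was in 13 of the 35 genes, of which 7 fell (53.8%) and 1 rose, at a median log2 fold change of -0.42. In the other 22 genes 11 fell (50%) and 3 rose, at a median of -0.23. Over all 12299 tested genes with a 3′ UTR, 42.7% of the 3277 with a word were lower and 30.3% of the 9022 with neither. A 3′ UTR with a word was also longer, with a median of 3436 bases against 1531 among the 35 genes and 3055 against 1220 among all, and the part of length was not tested. TPD52, MED28, TMPRSS2 and CENPN, the 4 largest falls, each held a word, as did MAF, which rose, and HOMER2, ZBTB16, AZGP1, LIFR and CAMKK2, which were not called.

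Sites are shown for 5 genes that fell and for MAF, which rose, along the strand of the gene and with the word in capitals.
TMPRSS2, chr21:41465511-41465539: aatatagacagTGCCCTTggtgcgaggga
CENPN, chr16:81030129-81030157: ccacctggcccTGCCCTTgtcacatgggg
MED28, chr4:17623883-17623911: aagaactctttGCCAGATaatgagttcat
MED28, chr4:17633489-17633517: cagacctccagGCCAGATggagtccacct
C1orf116, chr1:207021440-207021468: gctcataccttGCCAGATccctctctcag
MPHOSPH9, chr12:123155174-123155202: agatggagtttTGCCCTTgttgcccaggc
MAF, chr16:79596204-79596232: tgagccataatTGCCCTTggtaggaaaaa

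The remaining androgen pathway was read from lists of its genes. Of 78 other androgen-response genes, kallikreins included, 76 were tested, and 40 were lower (52.6%, against 30.1% of all genes tested) and 14 higher (18.4%, against 32.1%) at an adjusted p below 0.05, with a median log2 fold change of -0.21. The smallest p-values among the falls were at NCAPD3 (-1.92), a condensin subunit, FADS1 (-1.30), a fatty acid desaturase, XRCC6 (-1.33), a DNA end-binding protein, and UBE2J1 (-0.81), an ER-linked ubiquitin conjugase. Among the rises they included SELENOP (0.88), a selenium carrier, TSC22D1 (0.67), and SAT1 (0.57), of polyamine breakdown. KLK3, which encodes PSA, was at -0.55 and KLK2 at -1.21, while KLK4 was at 0.66. KLK2 was split like TSC22D3, with 154 to 168 CPM in siCHKA 1, 3 and 5 and 279.7 to 287 CPM in 2, 4 and 6, both below the 451 to 617 CPM of siNT.

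**Figure D5:**
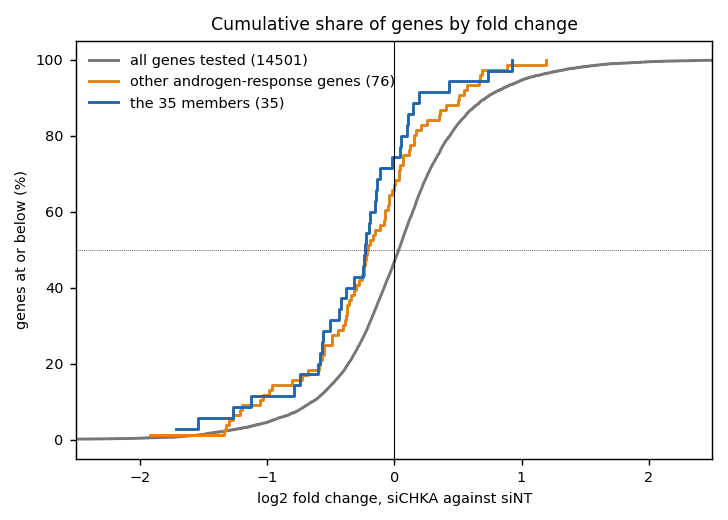
Share of genes (y axis, percent) at or below a given log2 fold change (x axis, siCHKA against siNT) for the 35 genes, 76 other androgen-response genes and all 14501 genes tested. The curves of the 35 and of the 76 lie left of that of all genes over most of the range, with medians of -0.23, -0.21 and 0.035.

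Of 15 genes of steroid receptors and their cofactors, 13 were tested, 8 were lower (61.5%, against 30.1% of all genes tested) and none was higher (against 32.1%). The 8 include CHKA, the target of the siRNA. FOXA1, a pioneer factor of luminal cells, was at -0.18, and the chaperones HSP90AB1, HSP90AA1 and FKBP4 were at -0.59, -0.48 and -0.45. The glucocorticoid receptor NR3C1 had 1 to 6 counts per sample and was not tested. Of 8 genes shared with the glucocorticoid response, FKBP5, ERRFI1 and KLF9 (-0.26) were lower (37.5%, against 30.1% of all genes tested) and SGK1, DUSP1 (0.86), a MAP kinase phosphatase, and PER1 (0.34), a clock gene, were higher (37.5%, against 32.1%). Of 9 genes that androgen represses, 5 were tested, none was lower (against 30.1% of all genes tested) and 3 were higher (60%, against 32.1%), namely CAMK2N1 (0.72), BCHE (0.42) and MET (0.40).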

How the data were processed

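RNA of 12 C4-2 samples, 6 siCHKA and 6 siNT, was measured by RNA-seq. The authors aligned reads to GRCh37 with TopHat2 2.0.4, counted them on Ensembl genes with HTSeq 0.5.3p9 and deposited raw counts in 4 files per sample, which were summed. The counting leaves out reads with several alignments or on overlapping genes, so genes with close copies are measured less surely; the strand setting is not given in the sources used here. Genes were named by Ensembl identifier through GENCODE release 44 (82.8% of identifiers matched), whose GRCh38 coordinates are printed. The shares of exon bases that genes have in common are also from this release. The older annotation used for the counting may differ from it, and its overlaps were not checked. Rows that name no gene held 33.9 to 39.0% of reads and were left out.

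The test was edgeR's quasi-likelihood test of siCHKA against siNT (edgeR 4.0.16, R 4.3.3) after filterByExpr and TMM normalization and without a covariate, with Benjamini-Hochberg adjustment over 14501 genes and calls at an adjusted p below 0.05. Log2 CPM used a prior count of 2; errors of fold changes are standard errors; permutation tests were exact and two-sided. Depth, from 10685184 to 24246055 reads on genes, sets a floor of 3 counts at 0.124 to 0.281 CPM before TMM scaling, which covers counting error only. On simulated counts with the depths of these samples (14378 genes), edgeR recovered 81.8% of 99 genes changed by 0.5 log2 and 98.0% of 98 changed by 1, with 8 false calls. The simulated samples were independent, with the same dispersion for every gene, no sets within a group and few changed genes. These rates check the code and do not carry over to the real counts.

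Groups and numbers came from the sample titles. The study's text speaks of biological triplicate experiments in 1 place and of 6 biological replicates in another. The labels do not say which samples come from separate cultures. All p-values, those of permutation included, treat the 6 samples of a group as independent. They measure the spread between these samples, part of which may be technical. The 35 genes, the role groups, the other lists and the sets of samples were chosen with earlier results of these data known. The genes described in full are TMPRSS2, SLC45A3, FKBP5 and CAMKK2, the 8 largest falls and up to 6 largest rises among those called, and all genes not called, with their intervals; of other lists at most the 4 smallest p-values in each direction and KLK3, KLK2, NR3C1 and FOXA1. Some genes are not reported here. KLK4, HSP90AB1, HSP90AA1 and FKBP4 were added after their values were seen. Alternatives were RLE normalization, DESeq2 1.42.0, the replicate block, each sample left out, no expression filter, a filter of 10 counts in all samples, a set of siCHKA samples left out, a minimum of 0.5 log2, 1 count file per sample and, added after seeing the data, a set of siNT samples left out.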

Additional observations from a re-analysis of the deposited data

Results flagged for a closer look

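In 2 of 70 groups of 6 samples (35 genes in siCHKA and in siNT), 1 sample lay apart from the others by Dixon's test at the 95% level, where chance gives about 3.5. Both were the siNT sample numbered 3 as the lowest of its group. It stood at 135 CPM for C1orf116, against 142 to 146 CPM in the other siNT samples, and at 145 CPM for ADAMTS1, against 170.3 to 182 CPM. Every siCHKA sample was below these values too, at 84.3 to 104 CPM for C1orf116 and 94.8 to 103 CPM for ADAMTS1.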

How the results depend on the processing

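Of the 35 genes, 15 kept their direction and their call in all 22 refits, and SGK1 in the 21 in which it was tested, the expression filter having removed it with 1 count file per sample. The number called lower was 11 with a minimum change of 0.5 log2 and otherwise 15 to 21 (17 to 19 with 1 sample left out), and the number called higher was 2 with that minimum and otherwise 3 to 5 (4 to 5). With that minimum 19 of the other androgen-response genes were lower and 9 higher, and otherwise 32 to 45 (37 to 40 with 1 sample left out) and 11 to 16 (13 to 15). The median of the 35 moved to -0.30 without siNT 1, 2 and 3 and lay between -0.25 and -0.21 with 1 sample left out.

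A call was lost in at least 1 refit at 6 genes (FKBP5, NDRG1, ACSL3, MPHOSPH9, PLPP1 and CREB3L4) and gained at 8. Leaving out 1 sample ended 2 calls: CREB3L4 was at -0.20, -0.20 and -0.19 without siCHKA replicate 1, 3 or 5 and at -0.21 without siNT replicate 2 (adjusted p = 0.0576, 0.0576, 0.0538 and 0.0554), and PLPP1 at -0.12 (adjusted p = 0.0521) without siCHKA replicate 4, all in edgeR's quasi-likelihood test. With 1 count file per sample, PLPP1 was at -0.096 and CREB3L4 at -0.17, neither called (adjusted p = 0.153 and 0.0709, same test). Leaving out 1 sample added calls at 5 genes in the same test: EAF2 at -0.28 and -0.27 without siNT replicate 5 or 6, PTGER4 at -0.26 and -0.25 without siNT replicate 1 or 3, LIFR at -0.25 without siCHKA replicate 5, HOMER2 at 0.20 without siCHKA replicate 2, and TSC22D3 at -0.46, -0.46 and -0.48 without siCHKA replicate 2, 4 or 6. Genes that were not called changed sign in these refits. Without siCHKA 1, 3 and 5, CAMKK2 was at 0.0067, HOMER2 at -0.034, SORD at -0.012, AZGP1 at 0.034 and ZBTB16 at -0.048. Without siCHKA 2, 4 and 6, HERC3 was at 0.016 and LIFR at 0.0062. Without siNT 4, 5 and 6, CAMKK2 was at 0.033, HERC3 at 0.041 and SORD at -0.0086, and without siNT 1, 2 and 3, BMPR1B was at -0.0026 and ZBTB16 at -0.010. Without siNT replicate 4 alone, HERC3 was at 0.0057 and ZBTB16 at -0.0083, in ranges of -0.053 to 0.0057 and -0.0083 to 0.099 with 1 sample left out. HERC3 was at 0.011 with at least 10 counts in every sample and GNMT at -0.011 with 1 count file per sample. The cause was not tested.

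Same-numbered samples did not deviate together: the correlations of their deviations were -0.16, 0.56, -0.37, -0.51, 0.29 and 0.058, and 1 of 6 numbers matched itself best. With the number as a replicate block, 19 of the 35 genes were lower and 4 higher, and TSC22D3 was called, at -0.42 (adjusted p = 0.00536, edgeR's quasi-likelihood test). CHKA stayed at -3.90 under the block, the median of the 35 at -0.24, and 40 and 13 of the other androgen-response genes were lower and higher. Counts per sample were 30 to 137 at MAF and 15 to 71 at SGK1, the rises with the fewest counts.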

Other observations

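The median of the 35 genes, as log2 CPM relative to the mean of the siNT samples, was -0.22, -0.28 and -0.27 in siCHKA 1, 3 and 5 and -0.22, -0.20 and -0.17 in siCHKA 2, 4 and 6, all of the latter higher than the former, siCHKA 2 narrowly above siCHKA 1. Genes outside the list showed the sets too, chosen after their values were seen. KLK3 was at 1726 to 1780.00 CPM in siCHKA 1, 3 and 5, at 2603 to 2747 CPM in siCHKA 2, 4 and 6 and at 2782 to 3811 CPM after siNT. The chaperone gene HSP90AA1 had the opposite order, at 3127 to 3391 CPM in siCHKA 1, 3 and 5 and 2464 to 2605 CPM in siCHKA 2, 4 and 6, against 3765 to 4440.2 CPM after siNT, and FKBP4, a cochaperone like FKBP5, did as well, at 459 to 503 and 389 to 396 against 543 to 633 CPM. CHKA was at 1.91 to 2.34 CPM in siCHKA 1, 3 and 5 and at 2.27 to 4.67 CPM in siCHKA 2, 4 and 6. Which of these differences between sets belongs to culture, transfection or library was not tested.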
